A study of Rattus norvegicus with 12 samples.

Results

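The 10 genes described here encode acetylcholine receptors: the muscarinic receptors Chrm1 to Chrm5 and the nicotinic subunits Chrna3, Chrna4, Chrna6, Chrna7 and Chrnb2. They were taken by name from the 41596 genes to which the deposited transcripts of the rat periaqueductal grey were summed. No cut on their values was used, but earlier results of these data were known when they were chosen. All 10 were above the limit of 0.5 TPM (transcript abundance per length and library total, the deposited unit) on average and so were among the 24540 genes tested. RNA came from 12 male Sprague Dawley rats, 6 labelled morphine-sired (misspelt in the labels) and 6 labelled saline-sired. Within each group they are numbered 1 to 6 here, in the order of the samples. The series title speaks of chronic morphine exposure of the fathers. The labels give the treatment of the sire only, no treatment of the offspring themselves, and neither age, dose, litter nor the identity of a sire. Each library carries its own animal number, and some of these numbers are consecutive, within a sire group or across the groups. The labels do not say whether such animals share a litter or a sire. The p-values take all 12 animals to be independent. The periaqueductal grey is a midbrain region of descending pain control and one of the sites at which opioids relieve pain, and the comparison asked whether receptor genes differ in the offspring by the treatment of the sire.

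Acetylcholine acts through 2 families of receptor. Muscarinic receptors couple to G proteins: Chrm1, Chrm3 and Chrm5 to Gq and phospholipase C, Chrm2 and Chrm4 to Gi and Go, which lower cyclic AMP and open potassium channels. Nicotinic receptors are cation channels of 5 subunits. Chrna4 and Chrnb2 together form the common high-affinity nicotinic receptor of the brain, Chrna7 forms channels on its own, Chrna6 is best known from catecholamine neurons, and Chrna3 usually assembles with Chrnb4 and Chrna5. In rodents, drugs that act on either family in the periaqueductal grey alter responses to painful stimuli.

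The partner subunits Chrna4 and Chrnb2 were the most abundant of the 10 genes, and both reached their 2 highest levels in morphine-sired 1 and saline-sired 6. Their promoters are shown for this reason, from RefSeq (assembly GRCr8), 250 bases before to 50 bases after the annotated start, 5′ to 3′ on the strand of the gene. Capitals mark the GC box, searched as GGGCGG and, for the other strand, CCGCCC. The Chrna4 window is chr3:188534477-188534776 (minus strand) and the Chrnb2 window is chr2:177487257-177487556 (minus strand).
Chrna4: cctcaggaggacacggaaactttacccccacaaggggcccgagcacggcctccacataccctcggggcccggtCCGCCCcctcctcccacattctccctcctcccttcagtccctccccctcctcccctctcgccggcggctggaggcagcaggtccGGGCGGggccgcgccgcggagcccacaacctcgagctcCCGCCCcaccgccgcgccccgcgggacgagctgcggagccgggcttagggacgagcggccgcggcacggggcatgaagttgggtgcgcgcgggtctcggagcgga
Chrnb2: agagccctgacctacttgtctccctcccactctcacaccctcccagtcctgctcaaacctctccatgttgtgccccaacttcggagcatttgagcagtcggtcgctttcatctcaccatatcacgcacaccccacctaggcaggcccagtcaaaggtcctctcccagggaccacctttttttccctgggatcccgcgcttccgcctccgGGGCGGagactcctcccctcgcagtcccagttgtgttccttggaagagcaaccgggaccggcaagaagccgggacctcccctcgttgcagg
Chrna4 held 3 such matches and Chrnb2 held 1. Of the 8 receptor genes in the RefSeq table, 7 held at least 1 and Chrm1 held none, while 33.06% of the 33469 windows of 300 bases in the table held one. A match of letters describes the window only. Chrm5 and Chrna6 were not used here for sequence.

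The libraries differed widely in markers of neuron types. The serotonergic marker Tph2 ranged from 0.489 to 195 TPM in morphine-sired and from 0.450 to 445 TPM in saline-sired libraries. Chat, which makes acetylcholine, was at 1.15 TPM in morphine-sired 1 and at most 36.4 TPM in that group, and ran from 0.0955 to 31.8 TPM in saline-sired libraries. The mean deviation of log2(TPM + 1) over 6 cholinergic and motor neuron markers stood apart, on the low side, in morphine-sired 1, saline-sired 1 and saline-sired 6. Summed catecholamine markers (Th, Slc6a3, Pitx3 and Aldh1a1) spanned 77.6 to 532 TPM with a median of 109 in morphine-sired and 86.3 to 254 TPM with a median of 130 in saline-sired libraries. Saline-sired 2 stood apart in the cerebellar markers Gabra6 (37.6 TPM), Pcp2 (166 TPM) and Neurod1 (31.0 TPM), which reached at most 0.316, 1.89 and 3.13 TPM in any other library, while the fourth, Cbln1, was at 30.6 to 155 TPM throughout. Of the 4 choroid plexus markers, Ttr was at 1756 TPM in morphine-sired 2 and 413 TPM in saline-sired 2, and at most 62.5 TPM elsewhere. Kl was also highest in these libraries, at 7.34 and 3.20 TPM. Folr1 and Clic6 were instead highest in morphine-sired 3, at 28.3 and 14.5 TPM. The 6 general neuronal markers were present in every library. In bulk tissue, fewer cells of a type and less RNA per cell cannot be told apart. Depth was 4.39 to 6.03 gigabases per library, which put 18 to 565 estimated reads on Chrna3, the lowest gene, and 4136 to 8261 on Chrna4.

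The receptor genes covered a wide span of levels. Averaged over the 12 libraries, Chrna4 was at 79.2 ± 15.7 TPM and Chrnb2 at 43.8 ± 9.87 TPM (SD, n = 12), followed by Chrm2 at 16.9 ± 2.40, Chrna7 at 13.9 ± 2.37 and Chrm3 at 13.3 ± 4.67 TPM. Below these came Chrm1 at 4.83 ± 1.38, Chrna6 at 4.43 ± 3.98, Chrm4 at 3.75 ± 0.818, Chrm5 at 2.73 ± 0.928 and Chrna3 at 1.98 ± 3.13 TPM. Among neighbours in this order, only Chrnb2 and Chrm2 had ranges that did not overlap. Chrna4 exceeded Chrnb2 in 12 of 12 libraries by gene sum. Chrm2 exceeded Chrna7 in 9 of 12, Chrna7 exceeded Chrm3 in 7 of 12, and Chrna6 exceeded Chrm4 in 4 of 12, so these neighbours did not separate. The 5 nicotinic subunits summed to 144.7 TPM (median) in morphine-sired and 134 TPM in saline-sired libraries. The 5 muscarinic receptors summed to 43.5 TPM in morphine-sired and 42.1 TPM in saline-sired libraries.

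**Figure D1:**
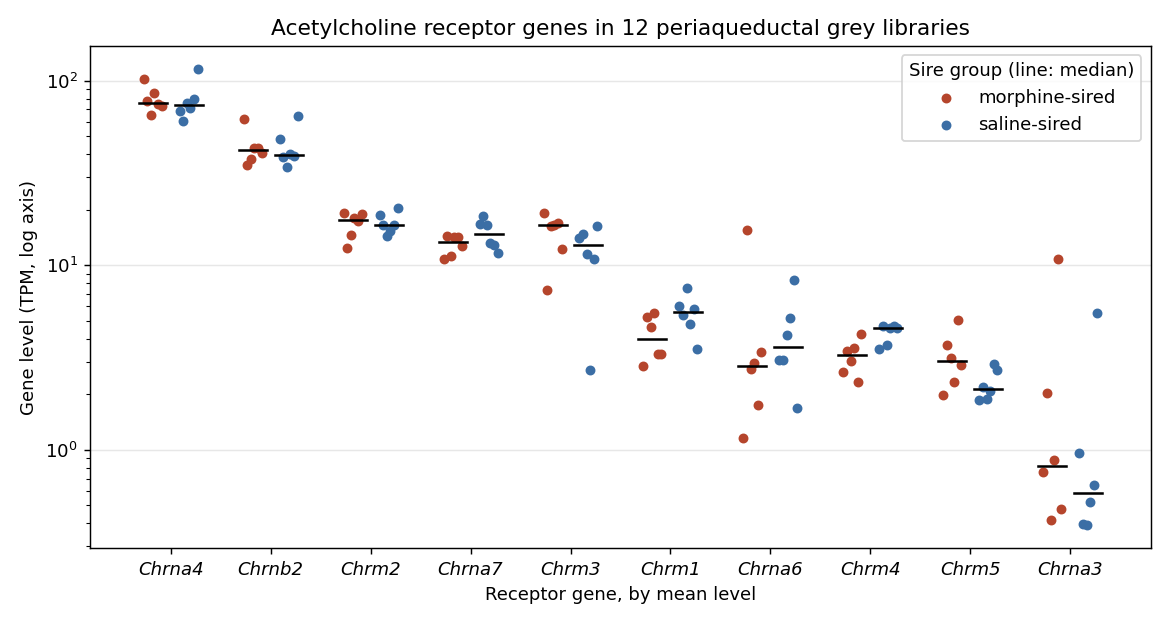
Level of each receptor gene in TPM (log axis), 1 point per library, morphine-sired left of saline-sired for each gene, with a line at the group median; genes are ordered by mean level. The groups overlap for all 10 genes, Chrna4 and Chrnb2 sit highest, and Chrna3 and Chrna6 each have single libraries far above the rest of their group.

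None of the 10 genes passed the test for a difference between the sire groups (limma on log2(TPM + 1), Benjamini-Hochberg adjusted p under 0.05), and the background share was the same, 0.0% of the 24540 genes tested. The adjusted p was 0.9998 for each of the 10, and limma-voom on estimated reads also called 0. At an unadjusted p under 0.05 there was 1 receptor gene, Chrm4, where 3.22% of all genes tested had such a p and 1.72% had one with the lower level in morphine-sired libraries. The groups did not separate for any receptor gene, while 0.0896% of all genes had groups without overlap. On the scale of log2(TPM + 1), subtracting saline-sired from morphine-sired means gave a positive difference for 4 genes and a negative one for 6, where 49.2% of all genes tested had a positive one. The 10 differences had a median of -0.02 beside a median of -0.00 over all genes tested. The test was also run on simulated independent normal values of the same size, with 200 genes changed. It recovered 45% of genes changed 1.5-fold on the scale of TPM + 1, 76% of those changed 2-fold and 94% of those changed 4-fold. These are averages over genes, not shares for the receptor genes, whose standard errors reached 0.53 (Chrna3), 0.44 (Chrna6) and 0.35 (Chrm3).

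**Figure D2:**
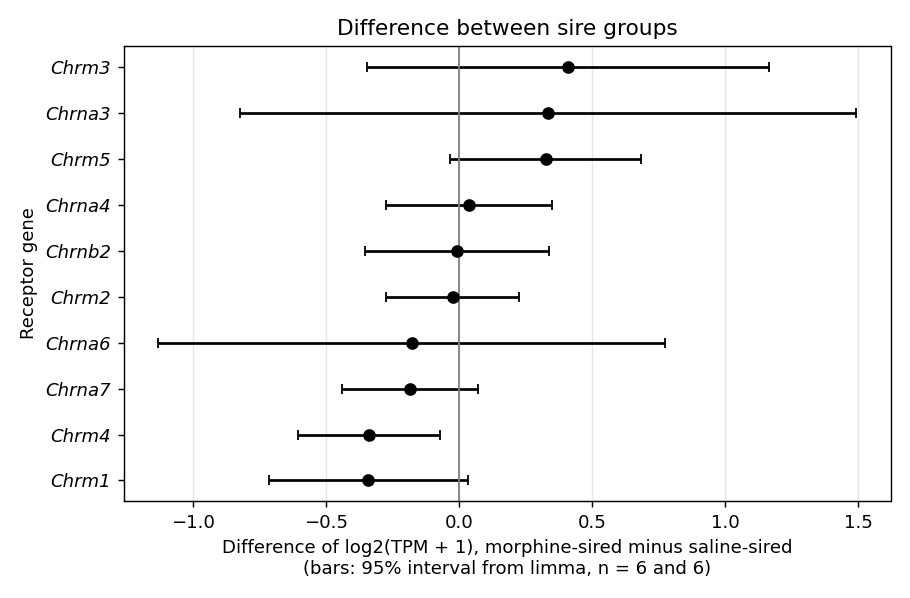
Morphine-sired minus saline-sired difference of log2(TPM + 1) for each receptor gene (points) with its 95% interval from limma (bars, n = 6 and 6), ordered by size. Only the interval of Chrm4, -0.60 to -0.07, leaves out 0, and that is before adjustment for the 24540 genes tested; Chrna3 and Chrna6 have the widest intervals.

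Among the muscarinic receptors coupled to Gi and Go, Chrm4 had the smallest p of the 10 genes. It is 1 annotated transcript of 2 exons (Rnor_6.0, chromosome 3, 80833272 to 80841006, plus strand). Its levels ran from 2.32 through a median of 3.25 to 4.27 TPM in morphine-sired and from 3.53 through 4.58 to 4.70 TPM in saline-sired rats. All 6 morphine-sired libraries lay below the saline-sired median, but morphine-sired 4 and 6 lay within the saline-sired range. The mean was 3.22 ± 0.701 TPM in morphine-sired and 4.29 ± 0.535 TPM in saline-sired rats (SD, n = 6 each). The log2 difference was -0.34 ± 0.12 (standard error, 95% interval -0.60 to -0.07), with an unadjusted p of 0.0169 and an adjusted p of 0.9998 (limma). The unadjusted p stayed between 0.00510 and 0.0460 in 23 alternative fits, of which the smallest adjusted p was 0.531. Those fits reuse the same libraries and are not independent. At 103 to 247 estimated reads a library, the gene is low, and its exons share 4 bases with Mdk on the opposite strand.

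Chrm2, the other Gi-coupled receptor, was the steadiest of the 10 genes, with a coefficient of variation of 14.2% over the 12 libraries where the median of all genes tested was 20.7%. It is a single annotated exon on chromosome 4 (64088900 to 64091090, plus strand). Its levels were 12.4, 17.7 and 19.3 TPM (lowest, median and highest) in morphine-sired and 14.4, 16.5 and 20.6 TPM in saline-sired rats. The ranges overlapped over most of their length, with morphine-sired 2 the lowest library, and the log2 difference was -0.02 ± 0.12 (95% interval -0.27 to 0.23).

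The Gq-coupled receptors gave differences of both signs, none past the test. Chrm1 (chromosome 1, 224869138 to 224886820, plus strand), a receptor best known from forebrain neurons, was at 2.86, 3.99 and 5.51 TPM in morphine-sired and 3.51, 5.59 and 7.52 TPM in saline-sired rats (lowest, median and highest). All 6 morphine-sired libraries were below the saline-sired median, though the ranges overlapped broadly, and the log2 difference was -0.34 ± 0.17 (unadjusted p 0.0702, limma). The annotated exon carried 12.9% of the level and an assembled transcript of 2 exons that runs beyond it on both sides carried 87.1%; from the annotated exon alone the difference was -0.11 ± 0.18. Medians of Slc17a7, Neurod6 and Tbr1, listed as forebrain markers and all above 0 in every library, were lower in the same group. Slc17a7 was at 18.6, 25.7 and 32.4 TPM in morphine-sired and 19.4, 39.8 and 55.5 TPM in saline-sired rats; the cerebellum expresses it too, and the highest value was that of saline-sired 2. Neurod6 was at 1.82, 2.00 and 2.45 TPM in morphine-sired and 1.498, 2.66 and 4.37 TPM in saline-sired rats. Tbr1, with a median of 0.865 TPM in morphine-sired and 0.911 TPM in saline-sired rats, was nearly level. Without single libraries, the difference ranged from -0.44 to -0.26 for Chrm1 and from -0.41 to -0.27 for Chrm4. It was -0.34 ± 0.19 for Chrm1 and -0.32 ± 0.13 for Chrm4 without saline-sired 2. That library was highest in Slc17a7 but not in Neurod6 or Tbr1, which were highest in saline-sired 1. The part of these markers in the values of Chrm1 and Chrm4 was not tested.

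Chrm3, whose product drives calcium release, was at 7.32, 16.5 and 19.3 TPM in morphine-sired and 2.71, 12.8 and 16.2 TPM in saline-sired rats (lowest, median and highest; chromosome 17, 63990341 to 64463722, minus strand). The low end came from saline-sired 4 and, in the other group, morphine-sired 2, and the remaining 10 libraries were at 10.9 TPM or above. The log2 difference of 0.41 ± 0.35 dropped to 0.08 ± 0.21 without saline-sired 4. The annotated exon held 4.29% of the mean level and the rest lay in 3 assembled transcripts that span nearly the whole locus. On the annotated exon alone the difference was -0.00 ± 0.29.

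Chrm5, the least abundant muscarinic receptor here and one known from dopamine neurons, was at 1.98, 3.03 and 5.05 TPM in morphine-sired and 1.87, 2.14 and 2.91 TPM in saline-sired rats (chromosome 3, 103966451 to 104018861, minus strand). In morphine-sired rats 5 of 6 libraries lay above the saline-sired median, with morphine-sired 5 the highest, but the ranges overlapped. Its log2 difference was 0.33 ± 0.17 (95% interval -0.03 to 0.69, unadjusted p 0.0718), and 0.21 ± 0.14 without morphine-sired 5 (unadjusted p 0.168). The ratio of summed Chrm2 and Chrm4 to summed Chrm1, Chrm3 and Chrm5 in TPM was 0.730 to 1.26 in morphine-sired and 0.864 to 2.06 in saline-sired rats, with the highest value in saline-sired 4, the library with the lowest Chrm3.

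The subunits of the high-affinity nicotinic receptor were close between the groups. Chrna4 (chromosome 3, 176527512 to 176548208, minus strand), the agonist-binding alpha subunit, was at 65.6, 76.2 and 102 TPM in morphine-sired and 60.8, 73.5 and 116 TPM in saline-sired rats (lowest, median and highest). Its ranges overlapped almost fully, with a log2 difference of 0.04 ± 0.14 (95% interval -0.27 to 0.35). Of its level, 79.3% lay in 1 annotated transcript of 6 exons. Chrnb2 (chromosome 2, 189083094 to 189105957, minus strand), its beta partner, was at 34.8, 41.9 and 62.0 TPM in morphine-sired and 34.0, 39.6 and 64.6 TPM in saline-sired rats, a log2 difference of -0.01 ± 0.16. Both subunits were highest in morphine-sired 1 and saline-sired 6, which were also among the 3 libraries with few cholinergic markers. In the third of these, saline-sired 1, Chrnb2 was at 48.2 TPM by gene sum, its next highest level. From the exons without overlap described below, saline-sired 1 (76.4 TPM) came after morphine-sired 4 (87.8 TPM), which is not among the 3. Chrna4 in saline-sired 1 was at 68.3 TPM, below its median of 75.5 TPM. The part of that marker difference was not tested.

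The Chrnb2 value depended on which exons were counted. An assembled transcript of 9398 bases carried 97.6% of it, and 5403 of those bases are shared with exons of Adar and 1287 with exons of Ube2q1, both on the opposite strand. No source used here states the strand of the libraries, and reads of the overlapping genes cannot be told apart. From 4 exons that no exon of another gene overlaps (1271 bases), Chrnb2 was at 50.7, 67.2 and 104 TPM in morphine-sired and 61.3, 69.6 and 112 TPM in saline-sired rats. These levels were 1.38 to 2.04 times the gene sum in morphine-sired and 1.58 to 1.80 times in saline-sired libraries. The log2 difference was -0.08 ± 0.18 on these exons. Chrna4, still taken by gene sum, exceeded this Chrnb2 level in 7 of 12 libraries instead of all 12. Chrna4 was not recounted on selected exons, so the 2 levels are unlike measures and do not settle which subunit is higher. The ratio of Chrna4 to Chrnb2 was 1.64 to 2.23 in morphine-sired and 1.42 to 2.23 in saline-sired rats by gene sum. With Chrnb2 by these exons and Chrna4 by gene sum, it was 0.973 to 1.53 in morphine-sired and 0.882 to 1.24 in saline-sired rats.

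Chrna7, the subunit of the alpha-bungarotoxin-sensitive channel, was at 10.8, 13.5 and 14.5 TPM in morphine-sired and 11.6, 14.9 and 18.6 TPM in saline-sired rats (chromosome 1, 123896725 to 124039411, minus strand). All 6 morphine-sired libraries lay below the saline-sired median and 4 of them lay within the saline-sired range. The log2 difference was -0.18 ± 0.12 (95% interval -0.44 to 0.07, unadjusted p 0.145). Saline-sired 2, the library with cerebellar markers, had the highest level, and without it the difference was -0.12 ± 0.11 (unadjusted p 0.310). The gene sum was steady, with a coefficient of variation of 17.0%, but its division between 9 transcripts was not. One of the 2 annotated transcripts was at 0 in all 12 libraries and the other held 7.64% of the mean level. Of the 7 assembled transcripts, 5 were at 0 in 3 to 8 libraries each, and 1 assembled transcript that stood at 1.52 TPM or below elsewhere held 13.6 TPM in saline-sired 3.

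**Figure D3:**
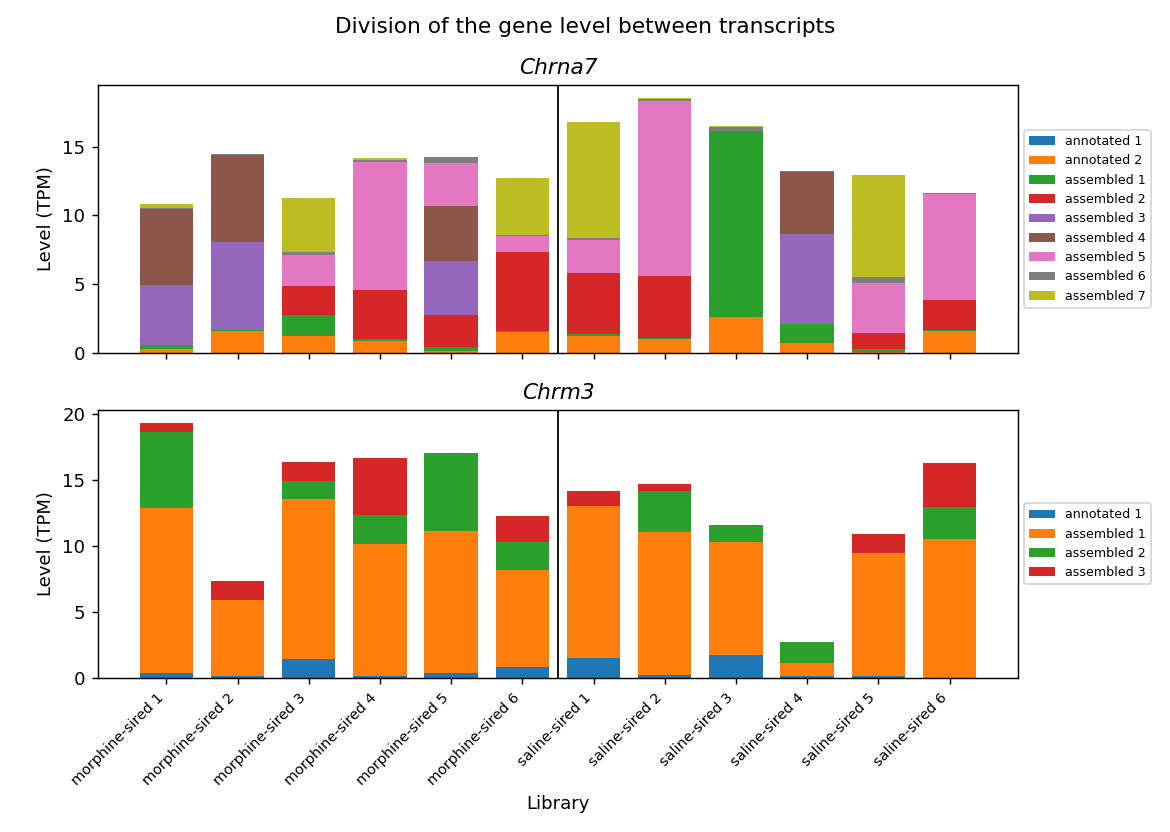
Level in TPM of each transcript of Chrna7 (top) and Chrm3 (bottom), stacked for each library, with the 6 morphine-sired libraries left of the line and the 6 saline-sired libraries right of it. The transcripts that hold the Chrna7 level change from library to library while the total stays between 10.8 and 18.6 TPM, and Chrm3 is lowest in saline-sired 4 at 2.71 TPM.

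Over all 10 genes there were 28 transcripts, 12 annotated and 16 assembled, and 25 had a mean of at least 0.5 TPM. None of the 25 passed the transcript test, where 0.00198% of the 50419 transcripts tested did. One, the single transcript of Chrm4, had an unadjusted p under 0.05 (0.0305), beside 3.77% of all transcripts tested.

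Chrna6 varied 13.3-fold over the 12 libraries and followed the markers of dopamine neurons. The gene (chromosome 16, 68860018 to 68866718, plus strand, 1 annotated transcript of 6 exons) was at 1.16, 2.84 and 15.5 TPM in morphine-sired and 1.70, 3.63 and 8.34 TPM in saline-sired rats (lowest, median and highest). Morphine-sired 2 was far above its group, in which the next library was at 3.41 TPM, and the other 5 lay below the saline-sired median. The log2 difference was -0.18 ± 0.44, and -0.57 ± 0.29 without morphine-sired 2 (unadjusted p 0.0794). Among 11938 genes with a symbol and a mean of at least 5 TPM, the patterns most like it over the 12 libraries belonged to Slc6a3, the dopamine transporter (r = 0.957), Th, the rate-limiting enzyme of catecholamine synthesis (r = 0.949), and Comp, a matrix protein (r = 0.945). Morphine-sired 2 held 103 TPM of Slc6a3 and 309 TPM of Th, where the other libraries held at most 28.3 and 146 TPM.

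The relation of Chrna6 to the catecholamine marker score (mean deviation of log2(TPM + 1) of the 4 markers) did not rest on that library. Over the other 11 libraries, Pearson's r was 0.960 (permutation p 1e-05, the smallest that 100000 resamples give, adjusted p 3e-04 over 30 relations) and Spearman's rho was 0.845 (permutation p 0.00189, adjusted p 0.0567). Without saline-sired 4 and 5, the 2 libraries farthest from the median score, r was 0.904. Within the 6 saline-sired libraries alone r was 0.957, and the 5 remaining morphine-sired libraries were too few for a value. With the score as a term, the log2 difference between sire groups was -0.10 ± 0.11, and its standard error was smaller than the 0.44 without it. This relation was the only 1 of the 30 (10 genes against catecholamine, serotonergic and cholinergic scores) with an adjusted Pearson p under 0.05. Without saline-sired 4, and likewise without saline-sired 5, Chrm3 also passed, with r = -0.821 and -0.766 over 10 libraries (adjusted permutation p 0.04215 and 0.0237). The serotonergic relations used only the 6 libraries lowest in that score, and the cholinergic ones used 9, without the 3 lowest. Most of the spread of these 2 scores was thus left out, so the tests cannot show whether a gene goes with it.

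**Figure D4:**
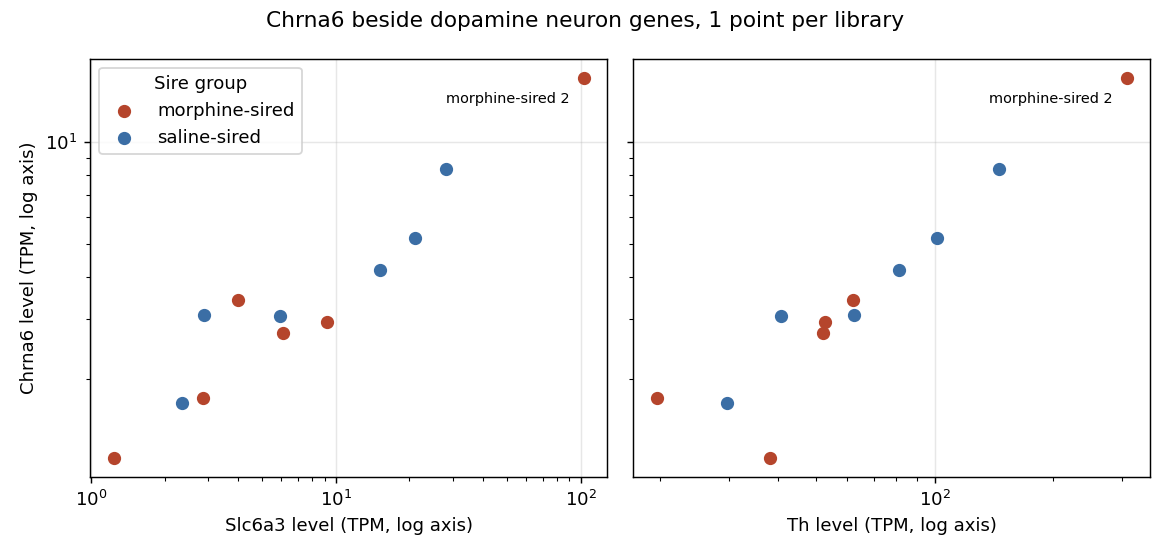
Chrna6 against Slc6a3 (left) and Th (right), both in TPM on log axes, 1 point per library, coloured by sire group. Chrna6 is higher where the dopamine neuron genes are higher, and morphine-sired 2 is the highest point in both panels at 15.5 TPM of Chrna6.

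Chrna3 was near the lower limit in most libraries and high in 2. The gene (chromosome 8, 59592403 to 59607275, minus strand, 1 annotated transcript of 6 exons) was at 0.419, 0.821 and 10.8 TPM in morphine-sired and 0.390, 0.586 and 5.53 TPM in saline-sired rats (lowest, median and highest). The high libraries were morphine-sired 5 and saline-sired 6, 1 in each group, and all others were at or below 2.04 TPM. The log2 difference was 0.33 ± 0.53, and -0.11 ± 0.39 without morphine-sired 5 or 0.68 ± 0.48 without saline-sired 6. Its usual partner Chrnb4 was also highest in morphine-sired 5, at 5.83 TPM, but was at most 0.584 TPM in the other morphine-sired and 0.554 TPM in the saline-sired libraries. In saline-sired 6 it stood at 0.456 TPM. Chrna5 was highest elsewhere, at 4.63 TPM in morphine-sired 2, and reached 0.944 TPM in saline-sired rats. Likeness over the 12 libraries was greatest for Nrf1 (r = 0.850), Pml (r = 0.800) and Eef1aknmt (r = 0.798). Their rank correlations with it were lower, at 0.608, 0.552 and 0.399.

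For Chrm3 the most alike genes were Wipf2 (r = 0.925), Lrtm2 (r = 0.919) and AC095693.1 (r = 0.910), all of them lowest in saline-sired 4. Between receptor genes, r was highest for Chrm2 with Chrnb2 (0.815, Spearman's rho 0.916) and Chrna4 with Chrnb2 (0.761, rho 0.413). Chrnb2 is taken here by gene sum, which shares exon bases with Adar and Ube2q1. The lowest r was that of Chrm2 with Chrna6 (-0.743, rho -0.664). The strongest rho was that of Chrm3 with Chrna6 (-0.930, r = -0.632). These values describe 12 libraries that also differ in neuron markers and depth, and no p is attached to them.

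**Figure D5:**
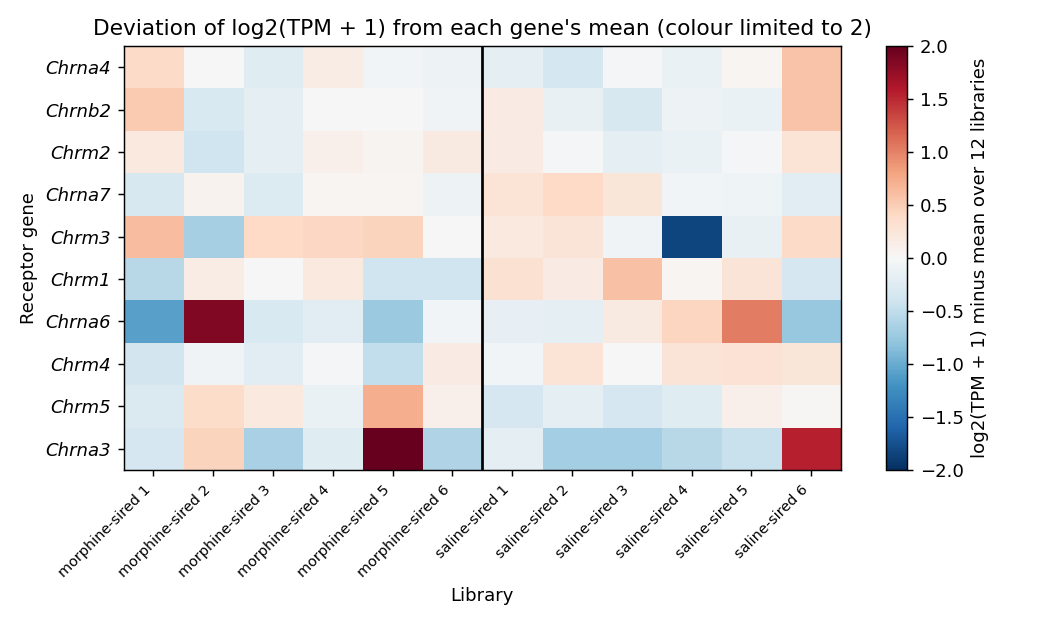
Deviation of log2(TPM + 1) from the mean of each receptor gene over the 12 libraries, with colour limited to 2, morphine-sired libraries left of the line and saline-sired libraries right of it. Single libraries stand out for Chrna3 (morphine-sired 5, saline-sired 6), Chrna6 (morphine-sired 2) and Chrm3 (saline-sired 4), and Chrna4 and Chrnb2 are both high in morphine-sired 1 and saline-sired 6.

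No gene of the wider acetylcholine system passed the test either. Of 44 further genes for other subunits, synthesis and breakdown, receptor chaperones and muscarinic effectors, 43 were found and 39 tested, and none passed at an adjusted or an unadjusted p of 0.05 (limma), beside 0.0% and 3.22% of all genes. Differences were positive for 19 and negative for 20, with a median of -0.01. Chat was at 1.15, 18.7 and 36.4 TPM in morphine-sired and 0.0955, 25.3 and 31.8 TPM in saline-sired rats (lowest, median and highest), a log2 difference of 0.57 ± 0.99. Chat is itself 1 of the cholinergic markers that differed between libraries. Ache, which breaks acetylcholine down, was steady at 180, 203 and 218 TPM in morphine-sired and 182, 204 and 221 TPM in saline-sired rats, although its locus holds 2 symbols.

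By list, the 6 other subunits tested had 4 positive and 2 negative differences (median 0.14), and Chrna1, Chrna9, Chrna10 and Chrnd were too low to test. The 7 genes of synthesis, transport and breakdown had 4 and 3 (median 0.05), the 7 chaperones and prototoxins 3 and 4 (median -0.03), and the 19 muscarinic effectors 8 and 11 (median -0.01). Among the genes with the smallest p values were Chrnb1, the muscle-type beta subunit (log2 difference -0.17 ± 0.11, p 0.144), Prima1, which anchors acetylcholinesterase in the membrane (-0.39 ± 0.26, p 0.156), and Ly6h, a modulator of nicotinic receptors (0.15 ± 0.10, p 0.158). These p values are unadjusted, from limma, and do not pass.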

How the data were processed

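PolyA RNA of dissected, frozen periaqueductal grey was sequenced from 12 animals, 6 per sire group, after an NEBNext Ultra library preparation, per the labels' protocols. The submitters' processing notes list HISAT2 2.2.0 and StringTie 2.1.2 with the build Rnor_6.0, beside SAMtools 1.11, DESeq2 1.28.1, Trimmomatic 0.39 and FastQC 0.11.9, while StringTie 1.3.6 wrote the deposited transcript files, per the file headers. The authors deposited coverage, FPKM and TPM for 76232 transcripts per library (41063 annotated, 35169 assembled). The authors' deposited log2 table matched log2(FPKM + 1) of the annotated transcripts to within 4.9e-08 and was used for gene symbols.

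TPM was summed per gene, and an assembled transcript was counted with the gene of its locus if that locus had 1 symbol. The test was limma (version 3.58.1, R 4.3.3) with a mean-variance trend, two-sided and Benjamini-Hochberg adjusted over all genes averaging 0.5 TPM or more, on log2(TPM + 1), which understates changes of low genes. TPM is no count, so the main test was on a log scale, and voom on estimated reads served only as an alternative. StringTie shares reads between overlapping transcripts, so single transcripts are uncertain. Depth came from the ratio of coverage to FPKM. Estimated reads assume reads of 135 bases, a length inferred from covered bases in low transcripts (14.6% within 1 base of a multiple, where chance gives 2.22%). The test was checked on simulated data. Relations to marker scores used permutation tests within clusters of libraries separated by gaps over 25% of the range, a rule set after the scores were seen. Alternatives were another pseudocount (0.1), filter (3 TPM), scaling, voom on estimated reads, annotated transcripts only, marker scores as terms and omitted libraries. The remaining steps ran in Python 3.11.15 (scipy 1.17.1, pandas 2.3.3, numpy 2.4.6, matplotlib 3.10.9).

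The receptor genes and the lists were chosen with earlier results of these data known. All 10 genes are named, with 3 of the 4 smallest p of the wider list, Chat, Ache, and the 3 genes most like each of the 3 receptor genes that vary most within groups. Chrnb4 and Chrna5 beside Chrna3, Adar, Ube2q1, Mdk and marker genes outside these rules were named after their values were seen. The Chrnb2 exon recount and the catecholamine score as a term were also chosen after seeing the data. Values of 1 gene of the wider list and of 1 marker are not reported here.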

Additional observations from a re-analysis of the deposited data

Results flagged for a closer look

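The 10 receptor genes, 6 genes chosen by rule from the wider list, and Chrnb4 and Chrna5, added after their values were seen, gave 36 sets of 6 libraries; the rest of the wider list was not examined. In 8 of them, 1 library lay far from the others by Dixon's criterion, applied to TPM. About 1 in 20 sets of normal values would meet it. TPM was not shown to be normal, and Chrnb4 and Chrna5 were added by their values, so 8 of 36 is not set against chance. Chrna3 stood out in both groups, at 10.8 TPM in morphine-sired 5 (next library 2.04) and at 5.53 TPM in saline-sired 6 (next 0.956). Chrna6 stood at 15.5 TPM in morphine-sired 2, where the next library had 3.41. Chrna4 stood at 116 TPM in saline-sired 6 (next 79.8), and Chrnb2 at 62.0 TPM in morphine-sired 1 (next 43.4). In the wider list, Chrnb4 stood at 5.83 TPM in morphine-sired 5 (next 0.584) and Chrna5 at 4.63 TPM in morphine-sired 2 (next 0.693), while Ly6h was low in morphine-sired 2, at 218 TPM beside 296 for the next library.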

How the results depend on the processing

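No receptor gene and no transcript of one passed an adjusted p of 0.05 in any fit run, and the count of all genes called, 0, became 1 without saline-sired 4, without saline-sired 6, and without saline-sired 1, saline-sired 6 and morphine-sired 1 together (range 0 to 1 when leaving out single libraries). Among all transcripts the count of 1 became 0 with no filter, 0 with serotonergic and cholinergic scores as terms, 2 without saline-sired 2 and morphine-sired 2, 11 without the 3 libraries low in cholinergic markers, and 0 to 2 without single libraries. The count of relations, 1, was 1 to 2 without single libraries. The sign of a log2 difference changed in some alternatives. Without single libraries, Chrm2 ranged from -0.067 to 0.054, Chrna3 from -0.11 to 0.68, Chrna4 from -0.035 to 0.15, Chrna6 from -0.57 to 0.020 and Chrnb2 from -0.11 to 0.11. Without the 3 libraries, Chrm2 was 0.040 and Chrnb2 0.069; without saline-sired 2 and morphine-sired 2, Chrm2 was 0.048, Chrna4 -0.024 and Chrnb2 0.018; with the scores, Chrnb2 was 0.027; from annotated transcripts, Chrm3 was -0.0035. The cause was not tested. Chrm4 kept its direction and an unadjusted p under 0.05 in all 23 alternatives. These alternatives are not independent: 12 left out a single library, and the filters and annotated transcripts only left the Chrm4 values unchanged. Unadjusted p under 0.05 also appeared for Chrm1 and Chrm5 in 3 alternatives each and Chrna7 in 1. Chrm5 and Chrna3 have no value under the filter of 3 TPM. No paired analysis was possible because the labels give no replicate numbers shared by the groups. Depth limits Chrna3, Chrm4, Chrm5 and Chrna6 most.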
